A study of Mus musculus with 2 samples.

Results

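The genes described here are the 6 microRNA (miRNA) genes of the paralogous miR-23/27/24 clusters: Mir23a, Mir27a and Mir24-2 on chromosome 8, and Mir23b, Mir27b and Mir24-1 on chromosome 13. They were found by their GENCODE M21 symbols among the 2202 miRNA genes counted, and all 6 were present. Small RNAs (under 30 nucleotides, per the labels) were sequenced from cortex of the left cerebral hemisphere. The mice were 25-day-old B6CASTF1/J males, first-generation offspring of C57BL/6J and CAST/EiJ parents, with no treatment named. The labels give 1 group of 2 biological replicates, 1 library from each of 2 separately numbered males that share a donor entry. Because there is no second group, the design implies a description of each gene, a comparison of the paralogues within a library, and a comparison of replicate 2 with replicate 1.

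A miRNA is cut from a hairpin in a longer primary transcript. The hairpin yields a 5p and a 3p arm, and bases 2 to 8 of an arm, its seed, pair with target mRNAs and largely decide which are repressed. The miR-23, miR-27 and miR-24 hairpins lie side by side and are transcribed together. Vertebrates carry a second copy of the whole cluster. The miRNAs are known from endothelial cells and astrocytes. miR-23 and miR-27 repress the apoptosis gene Apaf1 in neurons, miR-23 represses mitochondrial glutaminase, miR-27 acts on lipid metabolism and vessel sprouting, and miR-24 represses cell-cycle and DNA-repair genes.

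On mm10 the chromosome 8 cluster spans 404 bases (84208518 to 84208921, + strand). Mir23a (ENSMUSG00000065611.1) lies at 84208518 to 84208592, Mir27a (ENSMUSG00000065444.1) at 84208672 to 84208758 and Mir24-2 (ENSMUSG00000065541.1) at 84208815 to 84208921. None of these lies inside another annotated gene, and the last 2 bases of Mir24-2 overlap the long non-coding RNA gene Gm26532. The chromosome 13 cluster spans 792 bases (63300484 to 63301275, + strand). It lies within the aminopeptidase O gene 2010111I01Rik, now called Aopep, on the same strand, and within introns of Fancc on the other. Mir23b (ENSMUSG00000065599.2, 63300484 to 63300557) is intronic in all 9 Aopep transcripts that span it. Mir27b (ENSMUSG00000065475.2, 63300712 to 63300784) is exonic in 1 of 9, and Mir24-1 (ENSMUSG00000105904.1, 63301208 to 63301275) in 1 of 8. Gaps between successive hairpins are 79 and 56 bases on chromosome 8, and 154 and 423 bases on chromosome 13. Each miR-24 gene has a miRNA gene annotated on its other strand, Mir3074-2 opposite Mir24-2 and Mir3074-1 opposite Mir24-1.

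**Figure D1:**
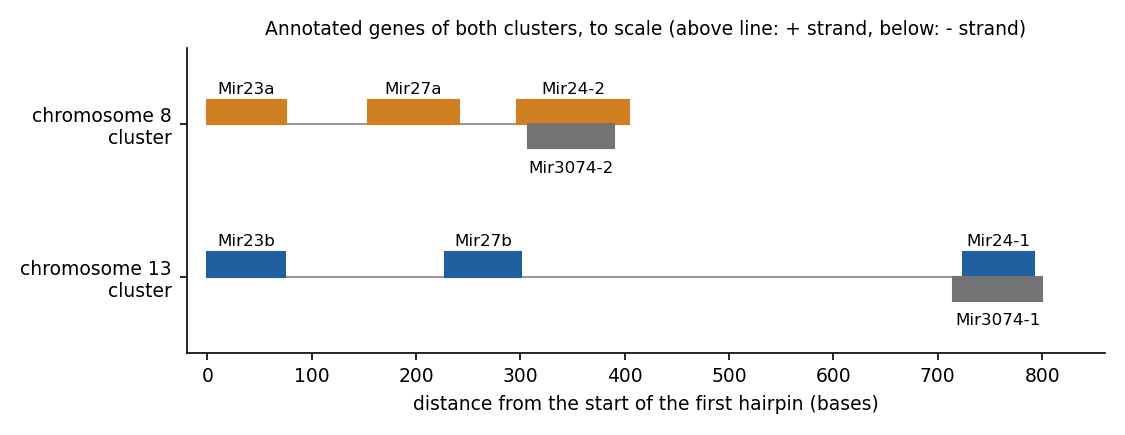
Map of both clusters to scale, with the distance in bases from the start of the first hairpin on the horizontal axis. Coloured boxes are the 6 genes on the + strand and grey boxes are the Mir3074 genes on the other strand; the 3 hairpins keep the same order in both clusters, and the chromosome 13 cluster is longer (792 against 404 bases).

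The RefSeq sequences (GRCm38.p6) are shown because the likeness of the paralogues decides which reads can be given to 1 gene. Capitals mark the seed of each 3p arm, and of the 5p arms of miR-24.
miR-23a-3p: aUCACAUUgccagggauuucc
miR-27a-3p: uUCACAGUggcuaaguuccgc
miR-27b-3p: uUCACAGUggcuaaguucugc
miR-24-3p, the same from Mir24-1 and Mir24-2: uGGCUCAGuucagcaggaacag
miR-24-1-5p: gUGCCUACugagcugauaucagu
miR-24-2-5p: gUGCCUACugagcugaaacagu
The 3p arms of miR-27 share their seed and differ at 1 position, C19U (the base of miR-27a, the position counted from 1 at the 5′ end, then the base of miR-27b). miR-24-3p is identical in all 22 bases. The 5p arms of miR-24 share their seed and differ at 5 of 22 positions, A17U, C19U, A20C, G21A and U22G (Mir24-2 first).

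The table of sequences used here lists the 5p arm and the hairpin of Mir23b. In these hairpins, capitals mark the longest stretch that Mir23a and Mir23b share.
Mir23a hairpin: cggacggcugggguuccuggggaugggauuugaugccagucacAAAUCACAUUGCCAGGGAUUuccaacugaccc
Mir23b hairpin: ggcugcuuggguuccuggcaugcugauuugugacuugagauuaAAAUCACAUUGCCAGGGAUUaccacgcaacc
This stretch of 20 bases, at positions 44 to 63 of both hairpins, holds the first 18 bases of miR-23a-3p with its seed. The miR-27 hairpins also share a stretch of at most 20 bases, and the miR-24 hairpins one of 28 bases that covers the whole 3p arm. A search of the 1005 hairpins in the table found the first 16 bases of miR-23a-3p, miR-27a-3p and miR-27b-3p in both copies of their family. At 19 bases or more each matched 1 hairpin. The 5p arms of miR-24 matched 1 hairpin from 17 bases on, and those of miR-23 and miR-27 at 16, the shortest length searched. miR-24-3p matched 2 hairpins over its whole length. Reads that match several loci were given to no gene in these files, so reads of exactly this arm are in neither miR-24 count. Shorter reads of the miR-23 and miR-27 3p arms match both copies as well; the lengths of the reads were not analysed here.

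Levels are counts on the gene's own strand per 1000000 such counts (CPM), without division by length, since each read stands for 1 small RNA and not for a fragment of a long one. The totals were 2388379 counts in replicate 1 and 4447390 in replicate 2, so replicate 2 gives the narrower intervals. Reads with several matches made up 48.6% and 52.8% of the mapped reads. The limit that a count of 0 allows (3 counts) is 1.26 CPM for replicate 1 and 0.675 CPM for replicate 2. Intervals are 95% exact Clopper-Pearson and cover counting error alone: reads lack molecular identifiers and may be copies of 1 molecule. Of 15 brain miRNA symbols checked, 12 were in the files and all 12 had a count, with sums of 74939 to 87793 CPM. Liver symbols summed to 85.4 to 103 CPM and muscle symbols to 13.8 to 22.3 CPM, with 4 of the 6 muscle genes at 0. Red cell symbols summed to 134 to 144 CPM. The numbered copies of miR-124 and miR-9, neuronal miRNAs with several genes each, were at or under 79.1 CPM each. Reads that match several of these genes are in none of their counts, so the values are not the level of either miRNA. How far such reads lower them was not tested.

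The miR-23 genes carried most of the assigned reads of both clusters. Mir23b had 33672 counts in replicate 1 and 85126 in replicate 2, which is 14098 CPM (interval 13949 to 14249) and 19141 CPM (19014 to 19268). By assigned counts, which leave out reads with several matches, it ranked 13th and 10th of all genes in replicates 1 and 2. Mir23a had 15304 and 38858 counts, which is 6408 CPM (6307 to 6510) and 8737 CPM (8651 to 8824). Replicate 2 was the higher library for both genes, and the ranges of Mir23a and Mir23b over the libraries did not overlap. As the mean of the libraries, Mir23b stood at 16619 ± 3566 CPM and Mir23a at 7572 ± 1647 CPM (SD, n = 2).

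The miR-27 genes were lower than their miR-23 neighbours and further apart from each other. Mir27b had 3781 counts in replicate 1 and 10004 in replicate 2, or 1583 CPM (1533 to 1634) and 2249 CPM (2206 to 2294). Mir27a had 315 and 774 counts, or 132 CPM (118 to 147) and 174 CPM (162 to 187). Each was again higher in replicate 2, and the lowest value of Mir27b exceeded the highest of Mir27a by far more than their intervals. The means were 1916 ± 471 CPM for Mir27b and 153 ± 29.8 CPM for Mir27a (SD, n = 2).

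Both miR-24 genes had few assigned counts. Mir24-2 had 95 counts in replicate 1 and 287 in replicate 2, or 39.8 CPM (32.2 to 48.6) and 64.5 CPM (57.3 to 72.4). Mir24-1 had 78 and 149 counts, or 32.7 CPM (25.8 to 40.8) and 33.5 CPM (28.3 to 39.3). In replicate 1 their intervals overlapped, and in replicate 2 Mir24-2 was the higher. Since miR-24-3p is shared, these values are those of the other reads at each locus and are minimum counts. The means were 52.2 ± 17.5 CPM for Mir24-2 and 33.1 ± 0.597 CPM for Mir24-1 (SD, n = 2).

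The order of the levels was therefore Mir23b, Mir23a, Mir27b, Mir27a, Mir24-2 and Mir24-1 in both libraries. Mir24-2 and Mir24-1 are the neighbours in that order whose difference was within the counting intervals of a library. In both libraries 392 genes reached 10 counts; these are called measured. Their median level was 121 CPM, and 4 of the 6 genes lay above it. Together the 6 genes held 2.23% of the counts in replicate 1 and 3.04% in replicate 2.

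**Figure D2:**
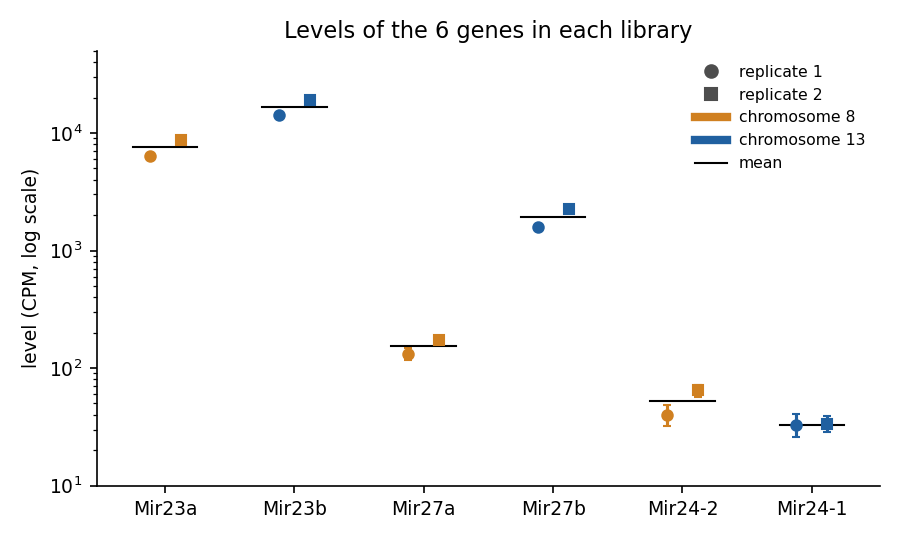
Level of each of the 6 genes in CPM on a log axis, by library (circles replicate 1, squares replicate 2; bars are 95% exact intervals from counting, black lines the mean of the libraries). Mir23a and Mir23b lie at 6408 to 19141 CPM, Mir27b at 1583 and 2249 CPM, and Mir27a and the miR-24 genes at or under 174 CPM.

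The chromosome 13 copy gave the larger part of the reads for miR-23 and miR-27, and not for miR-24. Mir23b held 68.8% of the miR-23 pair in replicate 1 (interval 68.3 to 69.2) and 68.7% in replicate 2 (68.4 to 68.9), which is 2.20 and 2.19 times the count of Mir23a. The difference between the libraries, −0.093 percentage points, is within these intervals. Mir27b held 92.3% of the miR-27 pair (91.5 to 93.1) and 92.8% (92.3 to 93.3), or 12.0 and 12.9 times the count of Mir27a, and these intervals overlap too. Mir24-1 held 45.1% of the miR-24 pair (37.5 to 52.8) and 34.2% (29.7 to 38.8). The first of these intervals includes 50% and the second lies below it, and they overlap. The log2 odds of Mir24-1 changed by −0.66 with a counting SE of 0.26, against 0.11 (SE 0.10) for Mir27b and −0.0063 (SE 0.017) for Mir23b. Divided by the annotated lengths of 68 bases for Mir24-1 and 107 for Mir24-2, the mean share of Mir24-1 was 50.7% in place of 39.6%. Each read stands for 1 small RNA, so division by length cannot decide the order of the miR-24 copies. By counts, only replicate 2 placed Mir24-2 above Mir24-1 beyond counting error.

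**Figure D3:**
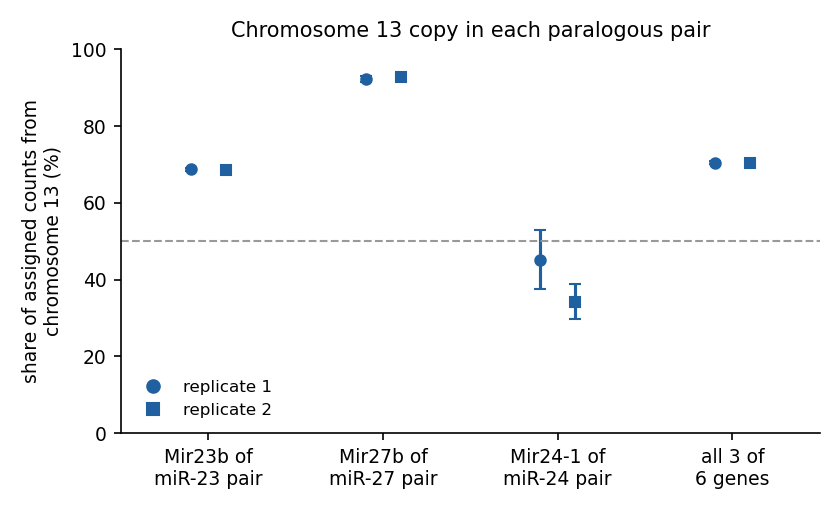
Share of assigned counts from the chromosome 13 copy in each pair and in all 6 genes, in percent, by library (bars are 95% exact intervals; the dashed line is 50%). Mir23b lies at 68.7 to 68.8% and Mir27b at 92.3 to 92.8%, while Mir24-1 lies at 45.1 and 34.2% with wide intervals.

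Summed over their 3 genes, the clusters kept nearly the same proportion. The chromosome 13 cluster had 37531 counts in replicate 1 and 95279 in replicate 2, and the chromosome 8 cluster 15714 and 39919. Chromosome 13 thus gave 70.5% in each library (70.1 to 70.9 in replicate 1, 70.2 to 70.7 in replicate 2). Levels were 18569 ± 4037 CPM for the chromosome 13 cluster and 7778 ± 1695 CPM for the chromosome 8 cluster (SD, n = 2). Mir23a and Mir23b dominate these sums, which say little of the other 4 genes.

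Within a cluster the 3 genes differed widely in level, although they share a strand and lie within 1 short region. Mir23a exceeded Mir27a by 48.6-fold in replicate 1 and 50.2-fold in replicate 2. Mir23b exceeded Mir27b by only 8.91-fold and 8.51-fold. Mir27a exceeded Mir24-2 by 3.32-fold and 2.70-fold, against 48.5-fold and 67.1-fold for Mir27b over Mir24-1. Mir23a thus made up 97.4% of its cluster's assigned counts in replicate 1 and 97.3% in replicate 2, and Mir23b 89.7% and 89.3% of its own. Reads of exactly miR-24-3p are in none of these counts, nor are shorter 3p reads of miR-23 and miR-27 that match both copies. The shares and all of these ratios therefore describe assigned reads, not the whole output of a cluster.

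For comparison, 382 other pairs of measured miRNA genes lie on the same strand within 10 kb of each other. Such pairs share genes and are not independent, so they serve as a description only. Their median difference in mean log2(CPM + 1) level was 2.76 (quartiles 1.33 and 4.45). The difference of Mir23b and Mir27b was 3.12, larger than in 56.5% of the other pairs. That of Mir23a and Mir27a was 5.62, larger than in 85.9%. The differences that involve a miR-24 gene ranged from 1.56 to 8.91 and rest on counts without the shared 3p arm.

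By the ratio of CPM, replicate 2 exceeded replicate 1 for all 6 genes, except that Mir24-1 turned slightly negative under other scalings. The log2 ratios of replicate 2 over replicate 1 were 0.45 for Mir23a (counting SE 0.014) and 0.44 for Mir23b (SE 0.0093), or 1.36-fold for each. They were 0.40 for Mir27a (SE 0.096) and 0.51 for Mir27b (SE 0.028). For Mir24-2 the log2 ratio was 0.70 (SE 0.17), or 1.62-fold, and for Mir24-1 it was 0.04 (SE 0.20), or −0.02 with TMM scaling. Of the 6 genes, 5 passed an exact conditional binomial test of the libraries (two-sided, Benjamini-Hochberg adjusted over the 392 measured genes at 0.05), all 5 of them higher. The adjusted p was 6.27e-05 for Mir27a and Mir24-2, 2.06e-78 for Mir27b and 3.14e-240 for Mir23a, too small to be represented for Mir23b, and 0.920 for Mir24-1. Among all measured genes, 56.9% passed that test, 34.2% as higher in replicate 2, so that passing it is common here. Only Mir24-2 was past 1.5-fold, as were 27.6% of the measured genes. The median absolute log2 ratio was 0.44 for the 6 genes and 0.34 for all measured genes.

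This test compares 1 library with 1 library and covers counting error alone, and the mouse and the library cannot be told apart. In edgeR's exact test with the dispersion of this pair (biological coefficient of variation 0.307), none of the 6 genes passed and 3 of 392 did; 19 of 392 had an unadjusted p under 0.05, again none of the 6. The dispersion in edgeR's test was estimated from the same libraries taken as 1 group. That test therefore asks only which genes differ more than most between them, and few calls follow from its design. With mapped reads as the total, the median log2 ratio of all measured genes moved from 0.06 to −0.06. Again 5 of the 6 genes passed the binomial test, but the split over all measured genes turned from 134 higher and 89 lower to 107 higher and 119 lower.

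**Figure D4:**
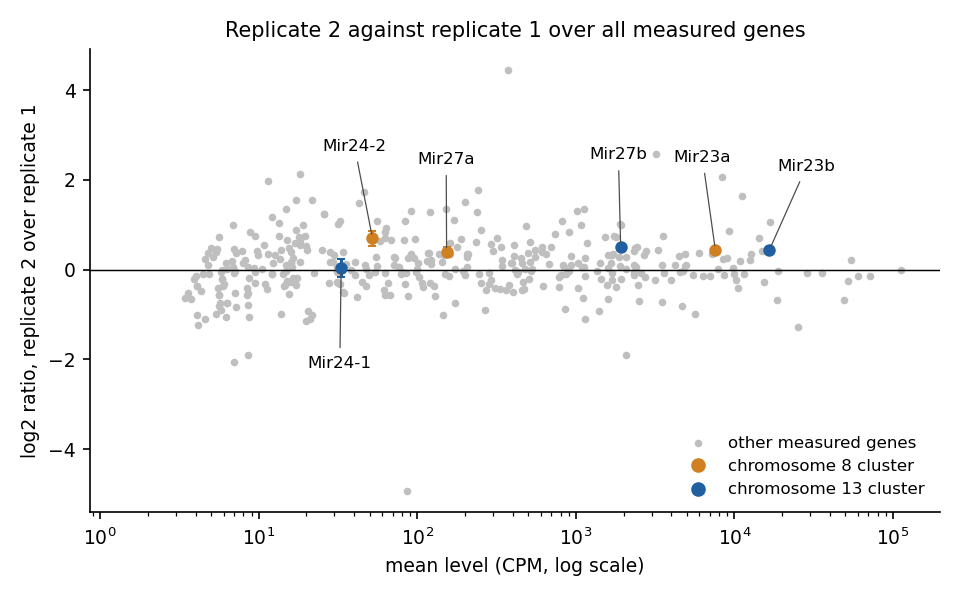
Log2 ratio of replicate 2 over replicate 1 against mean CPM (log axis) for the 392 measured genes, with the 6 genes coloured by cluster and bars of 1 counting SE. Of the 6, 5 lie between 0.40 and 0.70, within the spread of the other genes (grey), and Mir24-1 lies at 0.04.

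The shift was similar for the miR-23 and miR-27 genes, across the clusters as well as within them. The ratio of Mir23b to Mir23a, which lie on different chromosomes, moved by −0.0063 on the log2 scale (SE 0.017). The ratio of Mir23a to Mir27a moved by 0.05 on the log2 scale between the libraries (SE 0.097) and that of Mir23b to Mir27b by −0.07 (SE 0.029). Of the 382 other neighbouring pairs, 5.24% and 7.59% respectively had a smaller change, against a median of 0.48. The other pairs were not matched for depth, and low counts widen such changes by counting error. These percentages and the median therefore depend partly on depth, and how far was not tested. Pairs with a miR-24 gene moved by absolute values of 0.25 to 0.47, with SEs of 0.17 to 0.20.

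The steadiness of the miR-23 pair can be set beside other paralogues. In the files, 18 families have an a and a b gene without copy number and both measured. The b gene of the miR-23 pair was higher by a mean log2 ratio of 1.13, the sixth smallest absolute ratio of the 18. The Mir148 and Mir99 pairs came next below it (absolute values 1.06 and 0.91) and the Mir190 and Mir101 pairs next above (1.84 and 2.26). The miR-27 pair, at 3.64, was the twelfth, between the Mir193 and Mir200 pairs (3.00 and 2.82) and the Mir376 and Mir130 pairs (3.73 and 3.96). Between the libraries the ratio of the miR-23 pair changed by 0.0063, the smallest change of the 18, and that of the miR-27 pair by 0.107, the sixth smallest, against a median of 0.248. The families were not matched for depth, and low counts widen such changes by counting error, so these ranks depend partly on depth. The largest change, 2.48, was that of the Mir200 pair, whose lower member had a mean of 5.69 CPM. The Mir99 pair, whose lower member had a mean of 8381 CPM, changed by 1.84. In 8 of the 18 families the b gene was higher in both libraries, those of miR-23 and miR-27 among them.

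**Figure D5:**
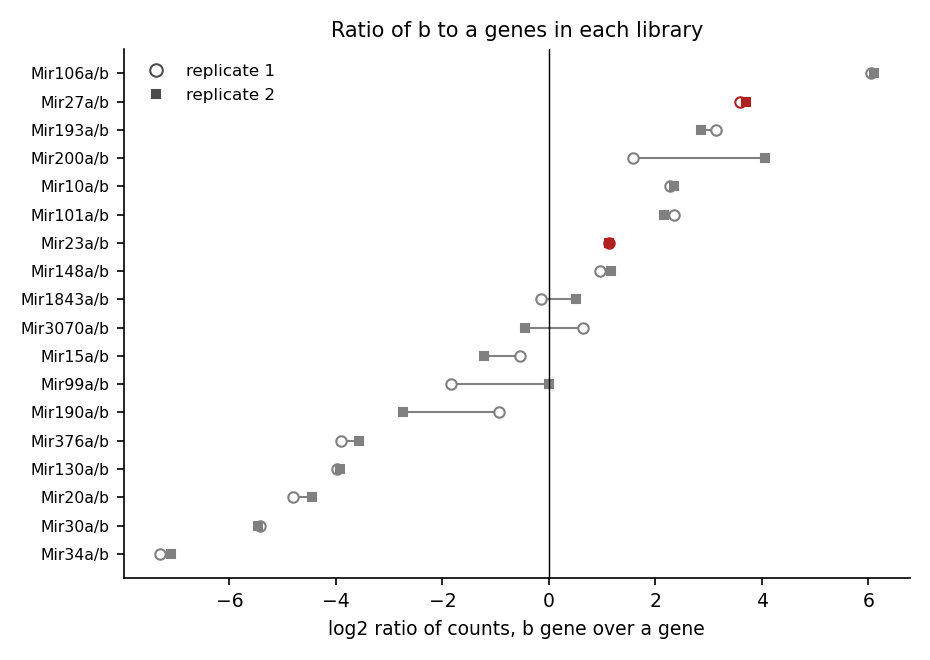
Log2 ratio of the b gene over the a gene in replicate 1 (open circles) and replicate 2 (squares) for the 18 families with both genes measured, miR-23 and miR-27 in red. The 2 symbols of the miR-23 pair coincide at 1.13 to 1.14, whereas those of Mir99a/b, Mir190a/b and Mir200a/b lie more than 1.5 apart.

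Other miRNAs known from the cell types in which the clusters are active were counted in the same test, which 56.9% of all measured genes passed, 34.2% as higher in replicate 2. Of 8 other astrocyte-enriched genes, all measured, 3 were higher, 3 lower and 2 did not pass the binomial test, with a median log2 ratio of −0.02 against 0.06 for all measured genes. Their summed level was 13814 CPM in replicate 1 and 20056 in replicate 2, and Mir29a (6554 and 11948 CPM), which represses collagen genes, gave the largest part. Of 7 endothelial and mural genes 5 were measured, 1 was higher and 4 lower, with a median log2 ratio of −0.22 and sums of 25974 and 32301 CPM. Mir126a, the miRNA of the endothelial gene Egfl7, was the one that was higher (10782 and 22504 CPM); Mir126b and Mir145b were at 0. In edgeR's exact test Mir26a-1 of the astrocyte list, at 166 and 5.40 CPM, was the one gene of both lists that passed (adjusted p = 8.75e-08). That test takes its dispersion from the same libraries it compares. In bulk tissue, fewer cells of a type and less RNA per cell cannot be told apart, and the part of these cell types in the levels of the 6 genes was not tested.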

How the data were processed

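Small RNA of 2 libraries (1 group, 1 per mouse) was analysed. The authors deposited raw counts for each miRNA gene, on mm10 with GENCODE release M21, per the readme files. The aligner and counter were not given in the sources used here. From the values alone, the 3 columns were taken to hold both strands, the gene's own strand and the opposite strand, in that order; own-strand counts were used. The 4 leading entries that name no gene stayed out of totals and tests; multimapping, no-feature and unmapped reads were 48.6% and 7.36% of mapped and 31.6% of all reads in replicate 1, and 52.8%, 6.91% and 18.2% in replicate 2. The remaining entry, ambiguous reads, was 0 on the own strand in both libraries. Reads of the CAST/EiJ allele can mismatch the reference, which was not tested.

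All 2202 identifiers matched GENCODE M21, which gave symbols and positions (1-based, mm10). CPM, shares, log2 ratios and counting SEs were computed here; log2 levels used a pseudocount of 1. The libraries were compared for genes reaching 10 counts in both, with a conditional binomial test (exact, two-sided, Benjamini-Hochberg adjusted). It was also run on simulated counts that vary by counting error alone, which cannot show how it behaves on libraries that vary further. With 1 group edgeR's quasi-likelihood test has no contrast, so edgeR 4.0.16 gave TMM factors, the common dispersion and an exact test, and DESeq2 1.42.0 gave alternative size factors (R 4.3.3, Python 3.11.15, pandas 2.3.3, NumPy 2.4.6, matplotlib 3.10.9, SciPy 1.17.1). Sequences were compared with the RefSeq hairpins of GRCm38.p6, not with the genome, which was not used here; all 6 genes matched by symbol. The genes named are the 6, those on their other strand, miRNA genes within 50 kb, the 2 genes nearest in level to each of the 3 most abundant of the 6 (of genes reaching 100 counts in both libraries), up to 3 genes of each list, and the a/b pairs next to miR-23 and miR-27. The genes and lists were chosen with earlier results of these data known.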

Additional observations from a re-analysis of the deposited data

Results flagged for a closer look

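Reads on the strand opposite to Mir24-1 numbered 23 in replicate 1 and 32 in replicate 2, above the 3 counts that a count of 0 allows, while the other 5 genes had 0 on their opposite strand in both libraries. They are outside the counts of Mir24-1 but inside the library totals. The same numbers are the own-strand counts of Mir3074-1 (9.63 and 7.20 CPM), and Mir3074-2, opposite Mir24-2, had 0 counts in both. miR-3074-5p is identical in both Mir3074 hairpins, so reads of that whole arm are in neither count.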

How the results depend on the processing

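Divided by annotated gene length, the chromosome 13 share was 69.0% for miR-23, 93.7% for miR-27, 50.7% for miR-24 and 70.9% for all 6 genes. With the strands counted together the last was 70.6%, and both miR-24 genes had 0 counts, so their share could not be computed. The Mir3074 genes opposite them also had 0 there. Reads set aside as ambiguous numbered 166659 in replicate 1 and 380286 in replicate 2 in that column, against 0 on the own strand. Whether the miR-24 reads are among them was not tested. Per 1000000 mapped reads the chromosome 8 and 13 clusters stood at 3258 and 7779. The log2 ratio of replicate 2 over 1 was 0.45 for both sums. For the chromosome 8 cluster it was 0.39 with TMM, 0.38 with DESeq2 size factors and 0.32 with mapped reads. For the chromosome 13 cluster it was 0.39, 0.38 and 0.32. With both strands counted together it was 0.47 for each cluster. Leaving out 1 replicate, which with 2 libraries gives the values of the other and is no check of stability, gave shares of 68.7 to 68.8%, 92.3 to 92.8%, 34.2 to 45.1% and 70.5%, and sums of 6579 to 8976 and 15714 to 21424 CPM. Of the 392 measured genes, 223 passed the binomial test, 3 passed edgeR's exact test and 108 were past 1.5-fold with no test; of the 6 genes, 5, 0 and 1 did. For Mir24-1 the log2 ratio was -0.021 with TMM, -0.030 with DESeq2 size factors, -0.090 with mapped reads and -0.026 in edgeR's test, in place of 0.037. The cause was not tested, beyond the scaling itself. All alternatives for the shares, sums and counts of calls were also tallied, those above included and leaving out 1 replicate aside. Of these, 27 stayed within the replicate spread, a 95% range from the counting SE or 1.5 times the count. Another 14 moved further and 4 gave fewer calls. The miR-24 genes have the widest intervals, with 78 to 287 counts each; how depth and reads with several matches share in these low counts was not tested.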

Other observations

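The next miRNA genes within 50 kb of a member are Mir181c and Mir181d, 29557 and 29731 bases from the chromosome 8 cluster and on the other strand. They belong to the miR-181 family, which tunes lymphocyte signalling and is abundant in brain. Mir181c was at 1994 CPM in replicate 1 and at 2677 CPM in replicate 2. Its log2 ratio was 0.42 (SE from counting 0.025; adjusted p = 8.34e-68 in the exact binomial test). Mir181d was at 2862 and 2570 CPM, a log2 ratio of −0.16 (SE 0.022; adjusted p = 8.48e-12 in the same test). These neighbours of each other thus differed in direction between the libraries, by a test that covers counting error only.

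Over the 2 libraries, the levels nearest to those of Mir23b among 241 other genes with at least 100 counts in each were those of Mir125a (12831 and 17060 CPM, a distance of 0.21 on the log2 scale) and Mir128-1 (10802 and 17606 CPM, 0.40). For Mir23a they were Mir137 (6366 and 8063 CPM, 0.12) and Mir328 (7758 and 9108 CPM, 0.28), and for Mir27b Mir708 (1681 and 2039 CPM, 0.17) and Mir219a-2 (1345 and 2210 CPM, 0.24). With 2 libraries such likeness describes level and ratio alone.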
